A study of Homo sapiens with 4 samples.

Results

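The 10 genes described here encode subunits, inhibitors and inflammatory outputs of the NF-kB pathway, and were chosen by name: NFKB1, NFKB2, RELA, RELB, NFKBIA, TNFAIP3, IL6, LIF, CXCL8 and CXCL1. Their N6-methyladenosine (m6A) peaks were looked up by Ensembl gene ID in a list of 20261 peaks on 10140 gene IDs. The list came from m6A-seq of poly(A) RNA from the human cell line MDA-MB-231, which was established from a triple negative breast cancer and has mesenchymal features, in which fragmented mRNA is enriched with an anti-m6A antibody. It was taken to combine 2 immunoprecipitated (IP) libraries with 2 input libraries, although how they were combined is not stated. All 4 libraries were from cells labelled shNS, the name of the study's control short hairpin RNA. In GEO, the IP libraries have YTHDC1 in their treatment entry, while titles and protocol speak of an m6A antibody, and the titles were followed. Each peak carried 1 score and no value per library, so no spread between replicates and no depth behind a peak could be given.

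NF-kB transcription factors are dimers of Rel subunits. In resting cells they are held in the cytoplasm by inhibitors of the IkB type, and upon stimulation by TNF, IL-1 or Toll-like receptor ligands the inhibitor is degraded and the dimer enters the nucleus. It then switches on cytokine and chemokine genes together with its own inhibitors, which end the response. In triple negative breast cancer cells this pathway is known for the production of IL-6, IL-8 and related factors. m6A is a common internal mark of mRNA that is often found near the stop codon, and that is read by YTH proteins.

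Of the 10 genes, 3 had an m6A peak: RELA, NFKBIA and LIF. Each had 2 peaks, and all 6 peaks lay in a single block and scored no higher than the median of the list, 5.2e-08. All 6 were on the minus strand, where the median score over peaks was 3.2e-10, against 1.4e-05 on the plus strand. Of the 6624 minus-strand gene IDs in the list, 26.9% had exactly 2 peaks and 58.1% had 2 or more. The score was read as the peak caller's p-value for IP against input, although an FDR could be meant, since the header leaves this out. A peak is called stronger here when its score is smaller. The list gives no counts, so strength in this sense does not measure the degree of methylation. Among all 20056 protein-coding RefSeq genes, 40.8% had a peak and 26.6% had one that scored no higher than the median. The share among the 10 genes (30%, 95% Wilson interval 10.8 to 60.3%) was therefore near the background, and it is not a result about these genes. No peak was listed for NFKB1, NFKB2, RELB, TNFAIP3, IL6, CXCL8 or CXCL1. Expression is not part of the list, and a gene without a peak may be unmethylated or too weakly expressed to be called, which cannot be told apart.

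**Figure D1:**
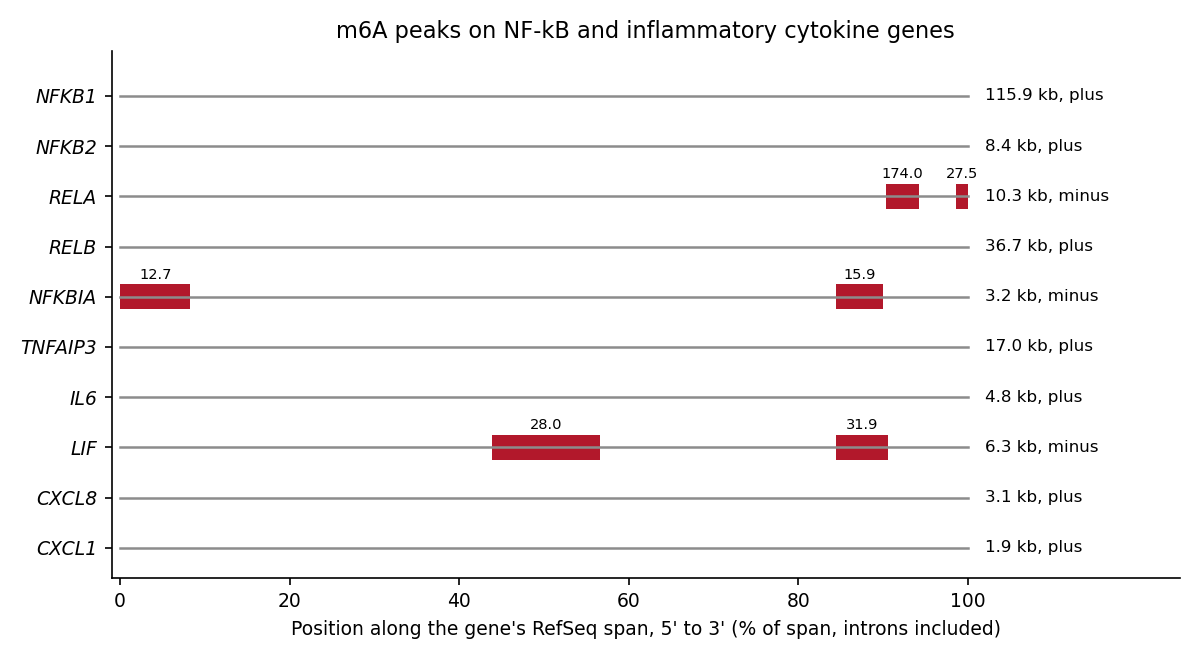
m6A peaks (red boxes, to scale) on the 10 genes, placed along each gene's RefSeq span from the 5′ to the 3′ end in percent of the span, introns included. Numbers above the boxes are the −log10 of the peak's score, and the span and strand stand at the right. RELA, NFKBIA and LIF, all on the minus strand, have 2 peaks each, and the other 7 genes have none.

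RELA encodes p65, the subunit that carries the main transactivation domain of NF-kB. The gene lies on chromosome 11 (65653601 to 65663857 on GRCh38, minus strand) and had the strongest peak of the 10 genes. This peak was 391 bases long (65654197 to 65654587), had a score of 1e-174, and ended 596 bases short of the 3′ end of the gene in RefSeq. A shorter peak of 151 bases (65653597 to 65653747, score 3.2e-28) reached the 3′ end itself and passed it by 4 bases. Both RELA peaks thus lay in the final 10% of a span of 10257 bases, and no peak was listed over the rest of the gene. Of the 6624 minus-strand gene IDs with a peak, 12.9% had a strongest peak that scored as low as that of RELA or lower.

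The other subunit genes had no peak. NFKB1 and NFKB2 encode the precursors p105 and p100, which are processed to p50 and p52, and RELB encodes the partner of p52 in the noncanonical pathway. No peak of any gene, on either strand, lay within the RefSeq spans of these genes on chromosomes 4, 10 and 19. The nearest listed peaks were those of CLPTM1, 8513 bases from RELB, MANBA, 14516 bases from NFKB1, and FBXL15, 20428 bases from NFKB2.

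NFKBIA encodes IkB-alpha, the inhibitor that NF-kB induces to shut itself off. It lies on chromosome 14 (35401513 to 35404749, minus strand) and had peaks towards both ends. The 5′ peak (35404482 to 35404749) was 268 bases long with a score of 2e-13, and its border coincided with the first base of the gene. The second peak (35401837 to 35402015) was 179 bases long with a score of 1.3e-16, and its nearer border lay 324 bases from the 3′ end. These were the weakest peaks of the 3 genes, and 55.5% of minus-strand gene IDs with a peak matched or passed NFKBIA in the strength of their best peak. A border on the first base of the gene was found for 2.98% of 12182 minus-strand peaks on protein-coding genes. For the 1935 on genes spanning 3000 to 11000 bases, which include NFKBIA, it was 4.86%. Of 5272 minus-strand protein-coding genes with a listed peak, of any span, 402 (7.63%) had peaks near both ends. Here a peak lay within 100 bases of the first base and one within 1000 bases of the 3′ end. This share was not computed for genes spanning 3000 to 11000 bases alone. NFKBIA was the only one of the 10 with this arrangement. TNFAIP3 encodes A20, the ubiquitin-editing enzyme that restrains signalling upstream of the kinases. It had no peak, and the nearest listed peak lay 208491 bases away, in PERP.

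LIF encodes leukemia inhibitory factor, a cytokine of the IL-6 family. It lies on chromosome 22 (30240453 to 30246759, minus strand), and more of its span was covered by peaks than in the other 2 genes. One peak of 805 bases (30243192 to 30243996, score 1e-28) was centred on the middle of the span, at 50.2% of its length from the 5′ end. Only 7.10% of minus-strand peaks were at least as long. The other peak was 388 bases long (30241048 to 30241435, score 1.3e-32) and ended 595 bases short of the 3′ end. The 1193 bases in peaks made up 18.9% of the LIF span, against 13.8% for NFKBIA and 5.28% for RELA. The median over the 935 minus-strand protein-coding genes with a peak and a span of 3000 to 11000 bases was 9.03%, with quartiles of 4.51 and 17.3%. Of the minus-strand gene IDs with a peak, 42.4% matched or passed LIF in the same way.

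IL6, the founding cytokine of that family, and the neutrophil chemokine genes CXCL8 (IL-8) and CXCL1 had no peak. No listed peak lay inside their spans on either strand, and the nearest were 126061, 166739 and 227739 bases away. The last of these was on CXCL2, a chemokine gene of the same cluster on chromosome 4 that is read from the minus strand. Its peak was 150 bases long at the 5′ end with a score of 0.003, far above the list median. All of IL6, CXCL8 and CXCL1 span under 5000 bases on the plus strand, and 20.1% of the 1211 such protein-coding genes had a peak, against 32.7% of the 1127 on the minus strand.

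Peak positions were compared with those of other genes. In 4 of the 6 peaks, from RELA, NFKBIA and LIF, the nearer border lay within 1000 bases of the 3′ end. This held for 20.6% of minus-strand protein-coding peaks, and for 34.5% (95% Wilson interval 32.4 to 36.6%) of the 1935 on genes spanning 3000 to 11000 bases, a range that holds all 3 genes. By midpoint, 2 of the 6 peaks lay in the final 10% of the span, against 21.9% in that set and 36.6% of all minus-strand protein-coding peaks. With 6 peaks on 3 genes these shares were not tested. None of the 6 shared a base with a peak on the opposite strand, and none of the 8 non-coding RefSeq genes whose span overlaps 1 of the 10 genes (among them RELA-DT, LIF-AS1, LIF-AS2, NFKB1-AS1 and IL6-AS1) had a peak. Exons, coding sequence and UTRs were not analysed here.

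Presence of a peak went with the strand of the gene. RELA, NFKBIA and LIF are the 3 minus-strand genes of the 10, and the 7 genes without a peak are all on the plus strand. The strand of RELB was taken from general knowledge, since the tables used here do not give it. In the whole list 72.3% of peaks were on the minus strand. Of protein-coding genes with a known strand, a peak was listed for 29.3% of the 8085 on the plus strand and for 55.6% of the 7758 on the minus strand. At 29.3% and 55.6%, a set of 7 plus-strand and 3 minus-strand genes would hold 3.72 genes with a peak, against the 3 observed. For peaks that scored no higher than the list median the shares on the plus and minus strands were 12.2% and 43.8%. The minus-strand genes with a peak also had smaller scores, with a median over genes of 4e-22 against 1e-06 on the plus strand, so each of the 3 genes was ranked within its own strand. The part of strand in the absence of peaks from the 7 genes was not tested, and for these genes strand and lack of m6A cannot be told apart.

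**Figure D2:**
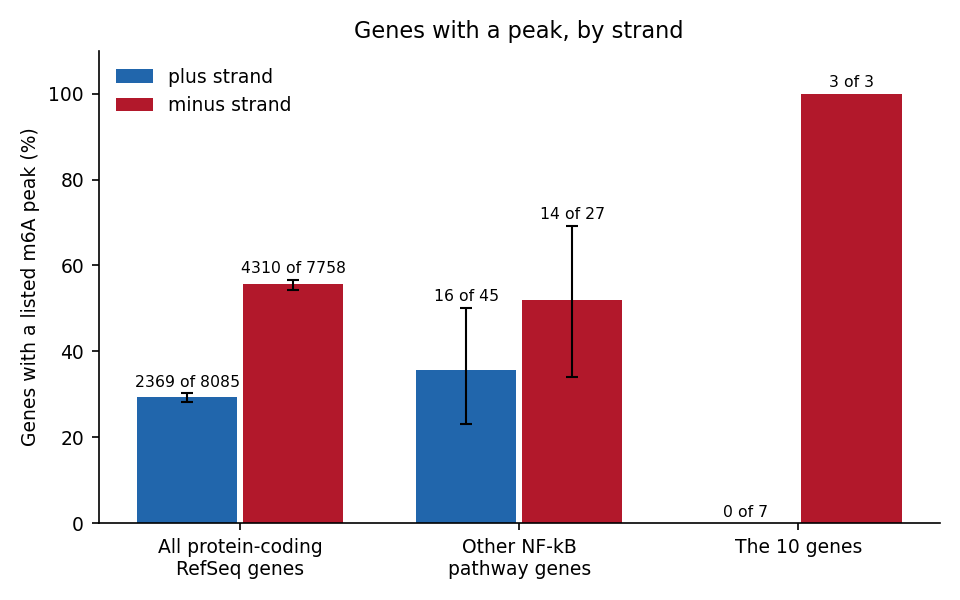
Percent of genes with a listed m6A peak, by strand (blue, plus, and red, minus), for all protein-coding RefSeq genes, for the other genes of an NF-kB pathway list and for the 10 genes. Bars in the first 2 sets use genes whose strand the promoter table gives and carry 95% Wilson intervals, which cover counting error only. Minus-strand bars are the higher in each set, and the 10 genes split into 0 of 7 and 3 of 3.

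**Figure D3:**
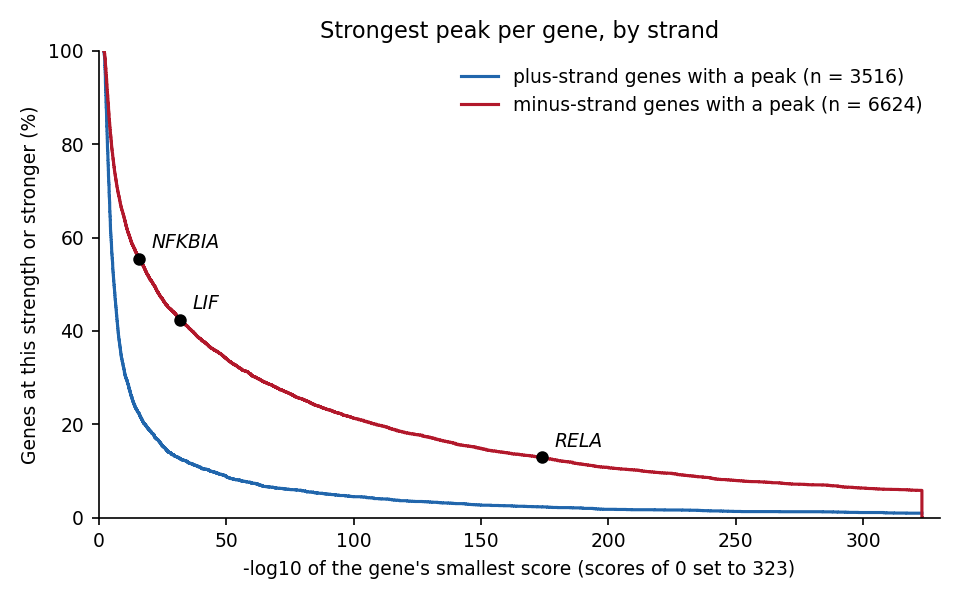
Percent of genes with a peak on the plus strand (blue) or the minus strand (red) whose strongest peak reaches a given −log10 score or more, with RELA, LIF and NFKBIA marked on the minus-strand line. RELA sits at 12.9%, LIF at 42.4% and NFKBIA at 55.5% of minus-strand genes.

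To place the 10 genes in their pathway, a list of 97 genes was sorted by role, and 41 of them had a peak (42.3%, 95% Wilson interval 32.9 to 52.2%), near the 40.8% of all protein-coding genes. The same held within each strand for genes with a tabulated strand: a peak was listed for 16 of 51 genes on the plus strand (31.4%) and for 16 of 29 on the minus strand (55.2%). In 28 of the 97 genes (background 26.6%) a peak scored no higher than the list median. On either strand, the shares of the pathway list were thus near those of all protein-coding genes.

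Among the 13 other inhibitor and feedback genes, 4 had a peak (30.8%, against 40.8% of all protein-coding genes). NFKBIE, which encodes IkB-epsilon, had 2 peaks in an arrangement like that of NFKBIA. Its 3′ peak was 802 bases long (score 1e-235) and ended 178 bases short of the 3′ end, and its 5′ peak of 268 bases (score 1.6e-15) ran over the first base of the gene. Peaks near both ends were not confined to inhibitor genes. The adaptor gene TRADD and the receptor gene TNFRSF1A also had a peak within 100 bases of the first base and one within 1000 bases of the 3′ end, as did TNIP1. TNIP1, a partner of A20, had 5 peaks with a smallest score of 7.9e-61. The other genes with a peak were TNIP2 (2e-11) and ITCH (1.5e-05), and the remaining inhibitors, NFKBIB, NFKBID, NFKBIZ and BCL3 among them, had none. REL, the only other subunit gene, had no peak.

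Kinases and adaptors, which pass the signal from the receptors to the inhibitors, had a peak in 16 of 27 genes (59.3%, 95% Wilson interval 40.7 to 75.5%). The share of all protein-coding genes, 40.8%, lay just inside this interval. TRAF1 had the strongest of these (score 1e-151), a peak of 1135 bases in a gene with 3 peaks, and TRADD had 2 peaks with a smallest score of 1.3e-63. Among the subunits of the IkB kinase, IKBKG had 1 peak (5e-33) and IKBKB 1 weaker peak (4.5e-07), while CHUK had none. MAP3K14, the kinase of the noncanonical pathway that acts on p100, had 4 peaks with a smallest score of 5e-48.

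Cytokine and chemokine genes had a peak in 5 of 21 cases (23.8%, 95% Wilson interval 10.6 to 45.1%). Besides LIF these were CSF1 (1.6e-78), CSF2 (2.4e-05), IL18 (0.0027) and CXCL2 (0.003). LIF and CSF1, the genes for leukemia inhibitory factor and macrophage colony-stimulating factor, were the only cytokine genes on the pathway list with a peak that scored no higher than the median. CSF1, on the plus strand, had peaks of 659 and 899 bases. The 95% intervals of the kinase and the cytokine group overlapped, both held the 40.8% of all protein-coding genes, and the difference was not tested.

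Receptor genes had a peak in 7 of 15 cases (46.7%, against 40.8% of all protein-coding genes). IL6ST encodes gp130, the signal transducer shared by IL-6 and LIF, and had 2 peaks with a smallest score of 1e-246. This peak of 510 bases shared 196 bases with a peak on the opposite strand, and the other, of 210 bases (score 4e-42), shared 119, so the list alone does not settle to which gene either belongs. LIFR, the specific LIF receptor, had 1 peak of 750 bases (7.9e-50), whereas IL6R had none, nor had CXCR1 and CXCR2, the receptors for IL-8. TNFRSF1A, the main TNF receptor, had 3 peaks with a smallest score of 1e-242.

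Of the 14 other NF-kB target genes, 7 had a peak (50%, against 40.8% of all protein-coding genes). BCL2L1, which encodes the survival factor BCL-XL, had 2 peaks, 1 of them with a score listed as 0, too small to be stored. Of the 1046 bases of that peak, 745 were shared with a peak on the opposite strand. The other, of 91 bases (score 8.1e-09), shared 89, so the list alone does not settle to which gene either belongs. ICAM1, an adhesion molecule on the plus strand, had a single peak of 691 bases with a score of 1e-190. No peak was listed for SOD2, PTGS2, VCAM1, PLAU, BCL2A1, IER3 or CD44.

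**Figure D4:**
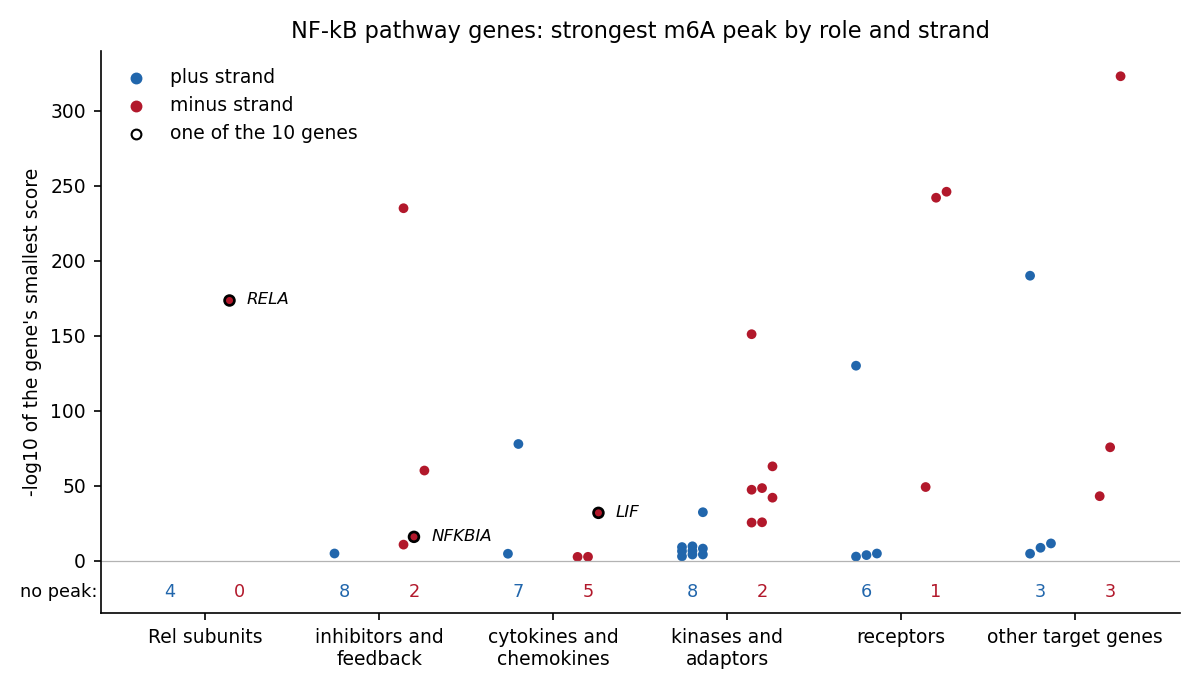
Strongest m6A peak of each NF-kB pathway gene as −log10 of its smallest score, by role and strand (blue, plus, and red, minus), with the 10 genes ringed. The number under each column counts genes without a peak, leaving out 7 genes whose strand is not given and which had none. RELA (174), LIF (31.9) and NFKBIA (15.9) lie among the other minus-strand genes, which run from 2.52 to 323.

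The 5′ peak of NFKBIA starts at the border of the promoter, and the promoters were therefore searched for 2 short motifs. RefSeq promoter windows on GRCh38.p14, 250 bases before to 50 after a start site, were found for 8 of the 10 genes, with 12 start sites in all. LIF and RELB had no window and were not searched. The NFKBIA peak covered all 50 transcribed bases of its window, and these held no m6A consensus, searched as NNACN in which both of the first letters are A or G and the last is A, C or T, on the transcribed strand. Such a match was present in the first 50 bases of 40.8% of all 35116 promoters. The rest of the peak lay outside the window and was not searched. The NF-kB binding consensus (kB motif) was searched on both strands of the 250 bases before the start. A match was found at 7 of the 12 start sites, against 9.96% of all promoters and 11.3% of the 22199 promoters of protein-coding genes. The genes were chosen by name from the NF-kB pathway and its outputs, so this excess was not tested and no conclusion is drawn from it. By gene, 6 of the 8 held a match, which cannot be set against shares counted by promoter. For each of these 6 genes the match nearest to a start site is given, to show the letters that matched. The kB match is in capitals within 30 bases on the gene's strand. Matches on both strands at the same position were counted once, and overlapping matches at shifted positions were counted separately.
NFKBIA, chr14:35404811-35404840, minus strand: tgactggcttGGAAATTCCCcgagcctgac
NFKB1, chr4:102501300-102501329, plus strand: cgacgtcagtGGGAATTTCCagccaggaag
NFKB2, chr10:102395674-102395703, plus strand: tggtattttcGGGACTTTCCtaagctgctc
TNFAIP3, chr6:137867194-137867223, plus strand: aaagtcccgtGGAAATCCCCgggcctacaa
IL6, chr7:22727117-22727146, plus strand: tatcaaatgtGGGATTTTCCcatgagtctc
CXCL1, chr4:73869305-73869334, plus strand: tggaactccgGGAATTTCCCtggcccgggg

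The NFKBIA match lay 72 to 81 bases before the start. Only bases before the start were searched for this motif, so a match could not lie in the peak. Of the genes with an m6A peak, NFKBIA held a kB match, RELA held none in its windows, and LIF was not searched. Of the genes without a peak, CXCL8 held no match to the pattern searched, and a site that departs from this pattern by a letter would have been missed. A match describes these letters and was not tested as a binding site. Binding of NF-kB was not measured in this series.

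Peaks on marker genes were counted as a check of the cell type, although a peak shows neither the level nor the absence of a transcript. Of 8 genes usually expressed in mesenchymal-like triple negative cells, 5 had a peak (VIM, EGFR, KRT8, CAV1 and SPARC), and CD44, KRT18 and AXL had none. Of 5 genes usually low or absent there, ESR1, PGR, CDH1 and GATA3 had none and ERBB2 had 3. Of 5 immune and endothelial genes, CD68 and PECAM1 had a peak. The share over all protein-coding genes was 40.8%. With so few markers, whose strand was not taken into account, these counts do not settle the cell type.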

How the data were processed

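The authors aligned reads of the 2 IP and 2 input libraries with STAR (version 2.7.2b) to GENCODE v33 annotations, called peaks with exomePeak (version 2.16, default parameters) and retained peaks within a minimum fold enrichment (1) and a maximum FDR (0.05). The deposited list gives 1 p-value or FDR per peak and no counts, so depth and replicate spread are unknown. The labels name hg38, and coordinates are written from 1. Gene IDs were matched to symbols without their version (10103 of 10140), and spans, promoter sequences and strands came from RefSeq tables of GRCh38.p14. The promoter table gave the strand of 8 of the 10 genes, the peak list that of LIF. Position is along the genomic span, introns included. Peaks were set against each other by shared bases (at least 1). A score of 0 was ranked at a −log10 of 323. The 10 genes were named by rule, with the 2 strongest other genes of each role and genes in counts of 5 or fewer. Further genes were named after their values had been seen. Members and lists were chosen with earlier results of these data known, so no test over them was made. Wilson intervals (scipy 1.17.1, Python 3.11.15) regard genes as independent and reflect counting error alone. Promoter motifs and the classes of gene span were chosen after results had been seen. The overlap, merging and ranking steps were tested on simulated data. A genome sequence and an exon map were not used here, so motifs inside peaks and UTRs were not analysed. A further marker gene is not reported here.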

Additional observations from a re-analysis of the deposited data

How the results depend on the processing

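The 3 genes with a peak were found under each of 6 alternatives: peaks at or under the list median, merged peaks, assignment by position, the first run of chromosomes in the list (19516 peaks), and leaving out peaks with any or with at least 50% overlap on the opposite strand. Their 6 peaks were also found, except that assignment by position gave 5, because 1 RELA peak passes the end of the RefSeq span. The pathway list had from 28 to 41 genes with a peak under these alternatives. Ranked among all listed genes in place of minus-strand genes, the share at or under the strongest score was 9.27% for RELA, 32.1% for LIF and 44.0% for NFKBIA, where the added 3516 plus-strand genes have a median strongest score of 1e-06 against 4e-22. Placed by the border nearest the 3′ end, 3 peaks in place of 2 lay in the final 10% of the span. No paired analysis was possible because the authors combined the libraries before peaks were scored, and leaving out a replicate was not possible either. With depth unknown, the 7 genes without a peak are not shown to lack m6A.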
